A study of Mus musculus with 12 samples.

Results

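The interferon-induced transmembrane genes Ifitm1, Ifitm2, Ifitm3 and Ifitm6 were followed through RNA-seq read counts of mouse bone marrow neutrophils. They are 4 of the 37310 genes in the count table, taken by matching each Ensembl identifier to its gene symbol (Ifitm1 ENSMUSG00000025491.8, Ifitm2 ENSMUSG00000060591.7, Ifitm3 ENSMUSG00000025492.6, Ifitm6 ENSMUSG00000059108.3). The set was chosen by the measured Runx1KO to Control difference of Ifitm1, which was lower in the knockout. Those comparisons are therefore given for the 4 genes as fold changes with standard errors and without a test. All 4 genes passed the filter on low counts that left 12917 genes for testing.

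The 12 libraries came from neutrophils of C57BL/6 mice, sorted as CD11b+, Ly6G+, Siglec F- and F4/80-, and held for 2 h in vehicle or in 100 ng/mL lipopolysaccharide (LPS), a component of bacterial outer membranes sensed through Tlr4. There were 4 groups of 3 libraries: Control vehicle, Control LPS, Runx1KO vehicle and Runx1KO LPS. Runx1 encodes a transcription factor that blood cell development depends on, and the study asked how its loss alters the inflammatory output of neutrophils. The design text adds that the Control sample held LKS- cells pooled from 1 Runx1f/f mouse and 1 Runx1f/- mouse, so part of the Control cells carried a single working Runx1 allele. It does not say how this fits with the sorted neutrophils named by the labels. The sources used here do not give the Cre driver, the deleted part of Runx1 or the age of the mice. Whether the 3 libraries in a group represent different mice is not stated either, so p-values measure only the spread between these libraries, which may be technical.

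IFITM proteins are small membrane proteins of the cell surface and of endosomes that hinder the fusion of enveloped viruses with host membranes. Type I and type II interferons raise the transcription of most of them through STAT and IRF factors. Ifitm3 is the member best known for restricting influenza virus, and Ifitm1 is found more at the cell surface than the others.

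Ifitm1, Ifitm2, Ifitm3 and Ifitm6 lie together on mouse chromosome 7 in the order Ifitm5, Ifitm2, Ifitm1, Ifitm3, Ifitm6, with Ifitm1 alone of the 4 on the plus strand. The bases before the start sites of the 3 genes with the lowest Runx1KO to Control ratios are printed here because interferon factors and Runx1 act at such places. They come from RefSeq (GRCm38.p6, while the reads were aligned to mm9) and stop where GENCODE places the first exon. Ifitm1 is chr7:140967826-140968027 on the plus strand, Ifitm2 is chr7:140955988-140956211 on the minus strand and Ifitm6 is chr7:141016909-141017142 on the minus strand. Capitals mark motif matches.
Ifitm1: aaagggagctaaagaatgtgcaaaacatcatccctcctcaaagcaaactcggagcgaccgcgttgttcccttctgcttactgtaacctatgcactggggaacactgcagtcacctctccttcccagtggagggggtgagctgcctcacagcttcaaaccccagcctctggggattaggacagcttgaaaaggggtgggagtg
Ifitm2: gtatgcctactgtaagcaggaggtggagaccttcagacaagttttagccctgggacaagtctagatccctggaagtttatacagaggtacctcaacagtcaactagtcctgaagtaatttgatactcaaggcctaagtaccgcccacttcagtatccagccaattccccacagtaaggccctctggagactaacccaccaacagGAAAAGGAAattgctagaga
Ifitm6: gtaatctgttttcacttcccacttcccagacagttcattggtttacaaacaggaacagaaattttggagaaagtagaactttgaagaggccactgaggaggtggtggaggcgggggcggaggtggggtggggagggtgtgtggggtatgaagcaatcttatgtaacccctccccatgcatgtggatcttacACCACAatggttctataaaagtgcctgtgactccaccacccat
Over the 250 bases before each RefSeq start, both strands were searched for the RUNX core (TGTGGT or TGCGGT), an interferon-stimulated response element (GAAANNGAA) and a gamma-activated site (TTCNNNGAA). The last 2 patterns can overlap by their shared GAA. Ifitm1 had no match to any of them. Ifitm2 held 1 interferon-stimulated response element, GAAAAGGAA, 46 to 38 bases before its start. Ifitm6 held the RUNX core as ACCACA, its reverse strand form, 59 to 54 bases before its start, and a gamma-activated site 10 to 2 bases before it, within the unprinted bases. Ifitm3 had no match in these bases. Of 32851 RefSeq promoters of the same length, 18.6% held the RUNX core, 7.13% the response element and 7.02% the gamma-activated site. These matches are letters only and were not tested for binding.

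Ifitm1 was low in all 6 Runx1KO libraries and high in all 6 Control libraries. Its level in Control vehicle libraries 1, 2 and 3 was 218, 134 and 101 CPM (read counts relative to library size, scaled by TMM factors). In Control LPS it was 214, 141 and 108 CPM. In Runx1KO vehicle it was 16.7, 18.8 and 12.9 CPM, and in Runx1KO LPS 18.2, 13.6 and 22.4 CPM. The highest Runx1KO library thus stood far below the lowest Control library, and library 1 was the highest of the Control libraries in both treatments. The raw counts behind these levels were 2300 to 5180 in Control and 303 to 424 in Runx1KO.

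Means of Ifitm1 were 151 ± 60.2 CPM (SD, n = 3) in Control vehicle and 16.1 ± 3.01 CPM in Runx1KO vehicle. The fitted Runx1KO to Control difference was -3.22 on the log2 scale (SE 0.38), which is 9.34-fold lower. After LPS it averaged 155 ± 54.3 CPM across Control and 18.0 ± 4.38 CPM across Runx1KO, a difference of -3.10 (SE 0.38) or 8.56-fold lower. Counted from the lowest of all 12917 fold changes it ranked 107 with vehicle and 112 after LPS, and among the 2426 genes with a mean level at or above its own 1 and 2. These ranks only describe the values that chose the gene. Because these are bulk samples, fewer cells that carry the transcript and less transcript per cell cannot be told apart.

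**Figure D1:**
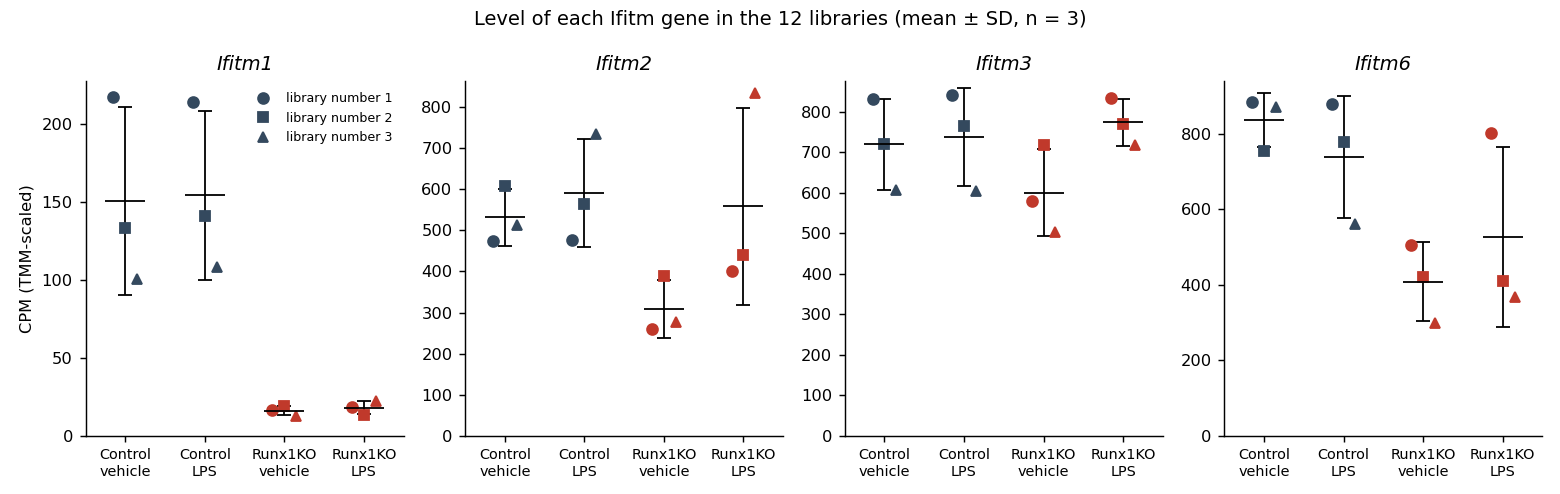
Level of each Ifitm gene in CPM (vertical axes from 0, TMM-scaled) in the 12 libraries; symbols give the library number, bars the mean and SD of 3 libraries. Ifitm1 sits between 101 and 218 CPM in Control and between 12.9 and 22.4 CPM in Runx1KO, while Ifitm3 overlaps between genotypes.

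Ifitm6, which lies beside Ifitm3, was the member next lowest against Control with vehicle. It measured 884, 754 and 872 CPM in Control vehicle and 506, 419 and 298 CPM in Runx1KO vehicle. These libraries did not overlap. The means of 836 ± 71.7 and 408 ± 104 CPM (n = 3) gave a log2 difference of -1.04 (SE 0.34), 2.05-fold lower. Treated with LPS, Control cells had 877, 777 and 560 CPM of it and Runx1KO cells 801, 410.0 and 367 CPM. There the groups overlapped, since Runx1KO LPS library 1 stood with the Control libraries, and the difference was -0.49 (SE 0.34). Without that library it was -0.93 (SE 0.31).

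Ifitm2, another antiviral family member, measured 474, 609 and 513 CPM in Control vehicle and 259, 389 and 277 CPM in Runx1KO vehicle. No Runx1KO vehicle library reached the lowest Control vehicle library. The means of 532 ± 69.2 and 308 ± 70.5 CPM gave a log2 difference of -0.79 (SE 0.33), 1.73-fold lower. After LPS, Control libraries had 476, 563 and 735 CPM and Runx1KO libraries 401, 441 and 834 CPM. The groups overlapped and differed by -0.08 (SE 0.32), with Runx1KO LPS library 3 the highest of all 12 libraries for Ifitm2.

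Ifitm3 differed least between genotypes. Its levels were 831, 721 and 607 CPM in Control vehicle and 581, 717 and 503 CPM in Runx1KO vehicle. After LPS, Control libraries had 841, 765 and 604 CPM and Runx1KO libraries 833, 770.5 and 717 CPM. The groups overlapped in both treatments, with log2 differences of -0.26 (SE 0.25) with vehicle and 0.07 (SE 0.25) after LPS. The second of these was -0.04 when libraries were scaled by their size alone.

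In all, 3 of the 4 genes were lower in Runx1KO with vehicle without overlap between libraries, and 1 of the 4 after LPS. Over all 12917 genes tested, 7.82% were lower without overlap with vehicle and 6.76% after LPS. By edgeR's quasi-likelihood test, 0.952% of all genes passed an adjusted p of 0.05 with vehicle (45 genes or 0.348% higher, 78 or 0.604% lower) and 0.921% after LPS (45 or 0.348% higher, 74 or 0.573% lower). With libraries scaled by size alone, the vehicle comparison held 45 higher and 50 lower genes. In a fit with the library number as a block, edgeR called 315 genes with vehicle and 302 after LPS. All these values are background only, since the same comparisons chose the genes.

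**Figure D2:**
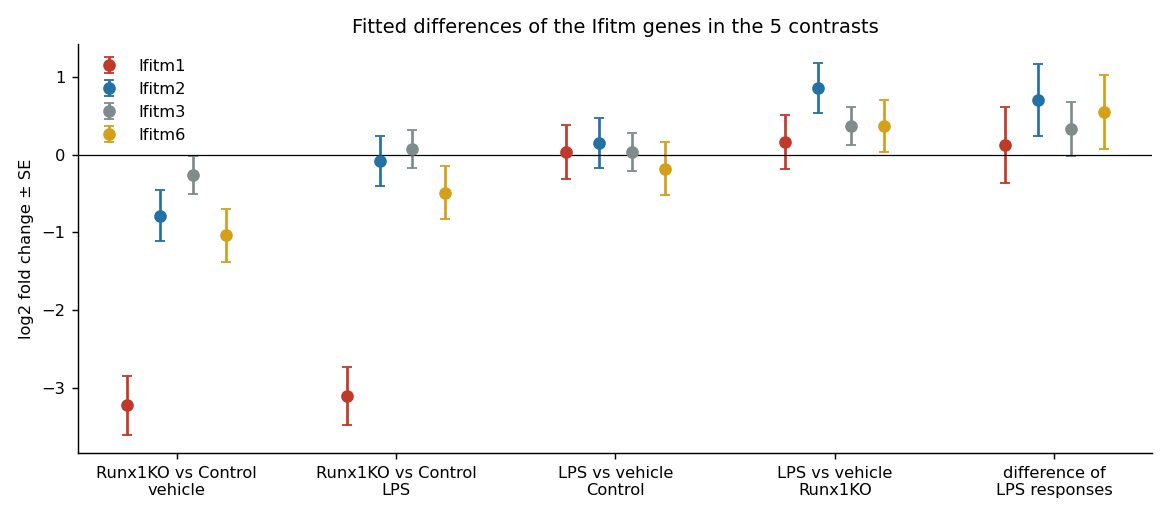
Fitted log2 fold changes of the 4 Ifitm genes in the 5 contrasts (vertical axis, log2; bars are standard errors). Ifitm1 sits near -3 in both genotype contrasts and near 0 in both LPS contrasts, while the genotype contrasts of the other 3 genes lie between -1.04 and 0.07.

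The LPS comparisons of the 4 genes were not used to choose them and were tested. In Control cells no Ifitm gene passed, by edgeR's quasi-likelihood test. The log2 difference between LPS and vehicle was 0.04 (SE 0.35) for Ifitm1, 0.15 (SE 0.32) for Ifitm2, 0.03 (SE 0.25) for Ifitm3 and -0.18 (SE 0.34) for Ifitm6. All 4 had an edgeR adjusted p of 1. The LPS and vehicle libraries of Control overlapped for each of the 4 genes, while 5.16% of all genes did not overlap. Scaled by size alone, Ifitm1 and Ifitm3 gave -0.07 and -0.08.

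In Runx1KO cells the log2 LPS difference was 0.16 (SE 0.35) for Ifitm1, with an edgeR adjusted p of 0.973. It was 0.86 (SE 0.33) for Ifitm2, from 308 ± 70.5 to 559 ± 239 CPM, with an edgeR unadjusted p of 0.0223 and an adjusted p of 0.873. For Ifitm3 it was 0.37 (SE 0.25), from 600.3 ± 108 to 774 ± 58.1 CPM, with an edgeR adjusted p of 0.873. None of these passed the threshold. Ifitm6 gave 0.37 (SE 0.34), with an edgeR adjusted p of 0.893. Ifitm2 and Ifitm3 were higher in every Runx1KO LPS library than in any Runx1KO vehicle library, an order shown by 3.51% of all genes. For Ifitm3 this rested on the scaling. Relative to library size alone, Runx1KO LPS library 3 held 501 CPM of Ifitm3, below the 672, 716 and 604 CPM of the Runx1KO vehicle libraries. The log2 LPS difference was then 0.075 for Ifitm3 (edgeR adjusted p 0.952) and 0.47 for Ifitm2 (edgeR adjusted p 0.664), and Ifitm2 still did not overlap. The Ifitm2 value rested much on Runx1KO LPS library 3, whose TMM factor of 0.700 was the lowest, and was 0.45 (SE 0.28) without it. The Ifitm6 value turned to -0.08 without Runx1KO LPS library 1. For Ifitm1 the value was -0.17 when libraries were scaled by size alone.

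The LPS responses of Runx1KO and Control cells differed by 0.13 (SE 0.49) for Ifitm1, 0.70 (SE 0.46) for Ifitm2, 0.33 (SE 0.35) for Ifitm3 and 0.55 (SE 0.48) for Ifitm6 on the log2 scale. All 4 edgeR adjusted p values were 0.9999. This contrast shares its vehicle libraries with the comparison that chose the genes. Scaling by library size alone gave -0.10 for Ifitm1. Among all 12917 genes, edgeR called 0% in each LPS contrast and in their difference. The shares at an unadjusted p under 0.05 were 0.604% in Control, 5.23% in Runx1KO and 0.596% for the difference. DESeq2 called 0, 1 and 0 genes, and limma-voom 0 in each.

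Tnf, a cytokine gene that LPS induces in myeloid cells, shows how uneven the libraries of a group could be. It measured 1281, 594 and 28.2 CPM in Control vehicle libraries 1, 2 and 3 and 1898, 1264 and 1927 CPM in Control LPS. In Runx1KO it measured 1419, 1184 and 73.0 CPM with vehicle and 488, 2866 and 8859 CPM after LPS. Vehicle libraries 1 and 2 of both genotypes thus held far more Tnf than vehicle library 3. The Runx1KO LPS libraries were uneven too, and library 1 of that group held less Tnf than Runx1KO vehicle library 1. Whether this unevenness bears on the LPS results of the Ifitm genes was not tested.

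Levels of different genes were compared per kilobase of exon, with exon lengths of 1094 bases for Ifitm1, 655 for Ifitm2, 678 for Ifitm3 and 905 for Ifitm6 in GENCODE vM21. In Control vehicle the order was Ifitm3 at 1061 ± 165, Ifitm6 at 924 ± 79.2, Ifitm2 at 813 ± 106 and Ifitm1 at 138 ± 55.0 CPM per kb. The ranges of the first 3 genes over the libraries overlapped, and Ifitm1 stood below all of them. Within each of these libraries, though, Ifitm2 held fewer counts than Ifitm3, at a ratio of 0.571 to 0.845 over exons of similar length. In Runx1KO vehicle the order was Ifitm3 at 885 ± 159, Ifitm2 at 471 ± 108, Ifitm6 at 451 ± 115 and Ifitm1 at 14.7 ± 2.75 CPM per kb. There Ifitm3 (742 to 1057) stood above Ifitm2 (395 to 594) and Ifitm6 (330 to 559), which overlapped. In Control LPS the levels were 1087 ± 178 for Ifitm3, 903 ± 201 for Ifitm2, 815 ± 179 for Ifitm6 and 141 ± 49.6 CPM per kb for Ifitm1. In Runx1KO LPS they were 1141 ± 85.7, 853 ± 365, 581 ± 264 and 16.5 ± 4.01 CPM per kb in the same order of genes, with Ifitm2 overlapping both Ifitm3 and Ifitm6.

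As shares of the counts of the 4 genes together, which do not depend on library scaling, Ifitm1 took 6.63 ± 2.17% in Control vehicle and 1.21 ± 0.0260% in Runx1KO vehicle. After LPS it took 6.86 ± 1.82% and 0.957 ± 0.172%. Ifitm3 took 32.0% in Control vehicle and 45.0% in Runx1KO vehicle, and 33.0% and 41.6% after LPS. A larger part of the family's reads was therefore Ifitm3 in Runx1KO, while its own level overlapped with Control. Ifitm6 took 37.5% and 30.5% with vehicle, and Ifitm2 23.9% and 23.2%. The summed level was 2239 ± 158 CPM in Control vehicle, 2221 ± 202 in Control LPS, 1333 ± 228 in Runx1KO vehicle and 1876 ± 217 CPM in Runx1KO LPS.

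**Figure D3:**
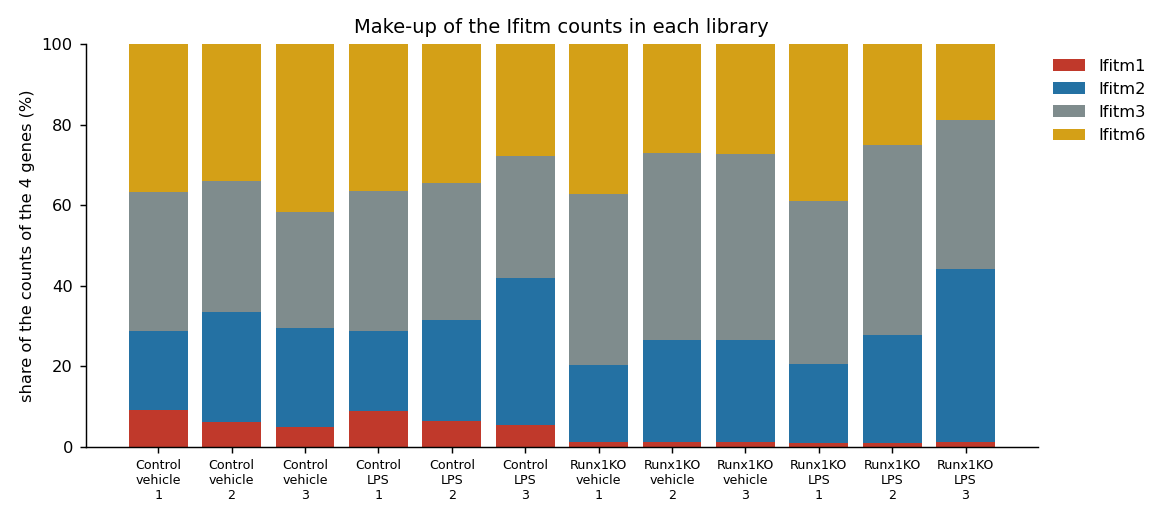
Share of each Ifitm gene in the counts of the 4 genes (vertical axis, percent) in each of the 12 libraries. The Ifitm1 share lies between 4.82 and 9.04% in Control vehicle and between 1.18 and 1.23% in Runx1KO vehicle.

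Near-identical sequence limits these counts for Ifitm2 more than for the others. Of the 50-base windows of its GENCODE transcripts, 48.5% also occur in another gene's transcripts, among them the predicted genes Gm45717, Gm11951 and Gm8865. The share was 10.0% for Ifitm3, 5.02% for Ifitm1 and 0% for Ifitm6. The sources used here do not say how such reads were counted, so Ifitm2 levels are uncertain. The predicted gene Gm11951 held 174 to 473 counts in a library against 6395 to 15609 for Ifitm2, and Gm7676, which shares windows with Ifitm1, held 24 to 140.

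The table held 3 further Ifitm genes, all at low levels. Ifitm10 averaged 4.94 CPM in Control vehicle and 6.14 CPM in Runx1KO vehicle. Ifitm5, known from bone-forming cells, averaged 0.562 and 0.870 CPM. Ifitm7 had 0 to 21 counts in a library and was not tested. Neither tested gene passed the test in any contrast, nor did Tmem91, the other tested gene of a list of 10 dispanin relatives. The median log2 Runx1KO to Control difference of those 3 genes was 0.61 with vehicle.

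The interferon pathway was then read from lists. Of 22 receptors, kinases and factors, 20 were tested and 0 passed in any contrast by edgeR's quasi-likelihood test, and 0 passed under any of 21 alternatives, DESeq2 and limma-voom among them. Irf9, a DNA-binding factor of the type I interferon response, measured 85.7 ± 43.8 CPM in Control vehicle and 87.2 ± 32.8 CPM in Runx1KO vehicle. Ifnar1, a receptor chain for type I interferon, measured 310.3 ± 183 and 257 ± 99.5 CPM. Ifngr2, a receptor chain for interferon gamma, measured 223 ± 164 and 239 ± 141 CPM. For each of the 3 genes the libraries of the genotypes overlapped. The list's median log2 difference was 0.13 with vehicle and 0.09 after LPS, beside 0.00 and 0.03 for all genes.

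Of 47 interferon-stimulated genes, 43 were tested and 0 passed in any contrast or under any of the same 21 alternatives. At an unadjusted p under 0.05, edgeR had 2 of them between genotypes with vehicle and 7 after LPS, beside 7.79% and 10.1% of all genes. Their median Runx1KO to Control difference was 0.16 with vehicle, with 26 of 43 above 0, and 0.39 after LPS, with 29 above 0. The list's median thus lay above 0 in both treatments. For LPS against vehicle the median was 0.07 in Control, with 23 of 43 above 0, and 0.28 in Runx1KO, with 39 above 0. For the difference of these responses it was 0.27, with 34 above 0. All genes had medians of -0.02, 0.03 and 0.05. At an unadjusted p under 0.05, edgeR had 0, 2 and 0 of the 43 genes, beside 0.604%, 5.23% and 0.596% of all genes. Isg15, a ubiquitin-like modifier, measured 15.2 ± 11.2 CPM in Control vehicle and 15.4 ± 10.1 CPM in Runx1KO vehicle. After LPS it measured 17.5 ± 10.2 and 43.7 ± 25.8 CPM, a log2 difference of 1.32 (SE 0.72) with an edgeR adjusted p of 0.605. Ly6e, a surface protein that also hinders viral entry, measured 116 ± 41.3 and 67.4 ± 22.6 CPM with vehicle, a difference of -0.78 (SE 0.36, edgeR adjusted p 0.642).

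Irf7, the interferon regulator that lies close to the family on the chromosome, measured 102, 43.5 and 47.5 CPM in Control vehicle libraries 1, 2 and 3. Rsad2, an antiviral enzyme, measured 146, 41.3 and 26.7 CPM in the same libraries. Library 1 was the highest Control library for both genes, as it was for Ifitm1, Ifitm3 and Ifitm6 but not for Ifitm2. In Runx1KO vehicle Irf7 measured 97.5, 68.4 and 49.1 CPM and overlapped with Control. Of 12 membrane and antiviral restriction factors, 11 were tested and 0 passed in any contrast, with a median difference between genotypes of 0.07 with vehicle and -0.12 after LPS.

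A list of 12 genes whose proteins bind or modify IFITM proteins was read next, of which 11 were tested. Cd81, a tetraspanin that binds IFITM proteins, averaged 60.4 ± 13.5 CPM in Control vehicle and 20.9 ± 5.98 CPM in Runx1KO vehicle. The libraries did not overlap, and the difference of -1.53 (SE 0.33) had an edgeR adjusted p of 0.0552. Zmpste24, a protease that acts with IFITM proteins against viruses, measured 185 ± 21.8 and 68.4 ± 36.4 CPM, a difference of -1.43 (SE 0.49) with an edgeR adjusted p of 0.323. Nedd4, a ubiquitin ligase that marks IFITM3 for breakdown, measured 33.6 ± 6.03 and 70.2 ± 3.31 CPM, a difference of 1.06 (SE 0.26) with an edgeR adjusted p of 0.0890. None of these 3 genes passed, although none overlapped between genotypes with vehicle. With the library number as a block Cd81 passed, at an edgeR adjusted p of 0.0249, while Zmpste24 (0.0737) and Nedd4 (0.0548) did not. Zdhhc20, an enzyme that attaches palmitate to IFITM3, and Vapa, a membrane tether that IFITM3 binds, differed by 0.07 and -0.07. Over the list the median was -0.07 with vehicle and -0.15 after LPS.

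The neighbours of the Ifitm cluster on chromosome 7 were compared because the 4 genes lie side by side. Of the 10 nearest tested genes with a symbol on each side, 20 in all, 0 passed in any contrast by edgeR's quasi-likelihood test. Their log2 Runx1KO to Control differences ran from -1.30 (Mtg1) to 0.61 (Ifitm5) with vehicle, with a median of -0.12. After LPS they ran from -1.06 (Paox) to 0.90 (Sigirr), with a median of -0.08. No neighbour came near the -3.22 of Ifitm1. That value belongs to the comparison that chose the genes, so the gap is a description only. With vehicle, 4 of the 20 (Mtg1, Paox, Echs1 and Rassf7) were lower without overlap and 0 were higher, and after LPS 1 (Sirt3) was lower, beside the 7.82% and 6.76% of all genes that were lower and the 5.42% and 6.51% that were higher. The gene order is that of GRCm38, whereas alignment used mm9.

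**Figure D4:**
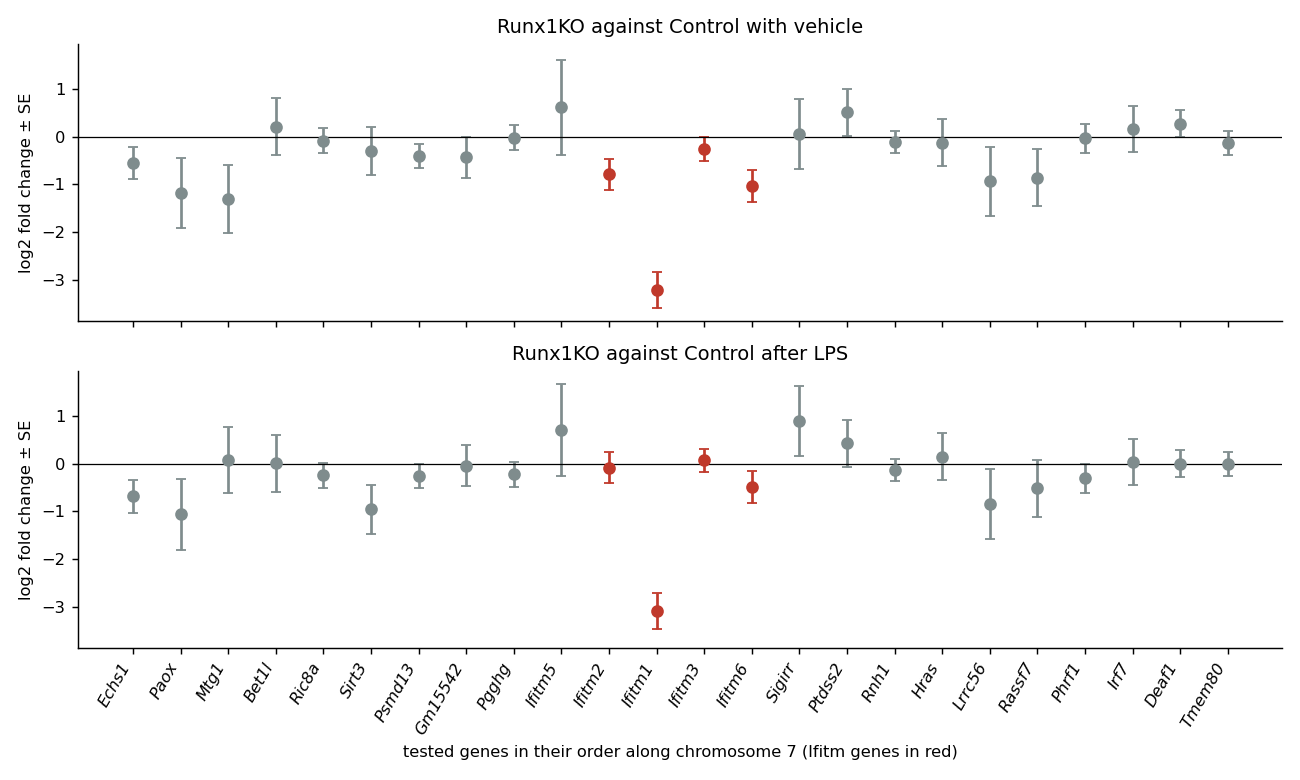
Log2 Runx1KO to Control fold changes (vertical axes, bars are standard errors) of the tested genes around the Ifitm cluster in chromosome order, with vehicle above and after LPS below; Ifitm genes are red. Ifitm1 stands at -3.22 and -3.10, and the 20 grey neighbours lie between -1.30 and 0.90.

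Patterns over the 12 libraries were compared by Pearson's r of log2 CPM among 7066 genes, as a description without a test. Ifitm1 was most like Srpk2 (0.965), Cdyl2 (0.965), Cd63 (0.964), Cd3d (0.962), Cd63-ps (0.960) and Dtnb (0.957). Cd63, a tetraspanin of granule membranes, averaged 148 CPM in Control vehicle and 39.5 CPM in Runx1KO vehicle, and Cd3d, a part of the T cell receptor complex, 38.5 and 2.40 CPM. What these genes share with Ifitm1 is mainly the step between genotypes. Over the 6 Control libraries alone their r with Ifitm1 ran from -0.62 (Cd3d) to 0.61 (Srpk2), and over the 6 Runx1KO libraries from -0.10 (Dtnb) to 0.61 (Cdyl2). Cd63-ps is a processed copy of Cd63, and reads of the pair can be mixed.

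Within the family, r with Ifitm1 over 12 libraries was 0.786 for Ifitm6, 0.500 for Ifitm2 and 0.351 for Ifitm3. Over the 6 Control libraries the order was different, with 0.951 for Ifitm3, 0.543 for Ifitm6 and -0.67 for Ifitm2. Ifitm2 and Ifitm6 went opposite ways there, with r = -0.97. The 6 Runx1KO libraries did not show this, with r = -0.08 for the same 2 genes. There r with Ifitm1 was 0.661 for Ifitm2, 0.467 for Ifitm3 and 0.305 for Ifitm6. In both treatments of Control, library 1 was the highest and library 3 the lowest for Ifitm1 and for Ifitm3. Ifitm6 was most like Tob1 (0.973), Rhov (0.948) and Anxa1 (0.947), Ifitm2 most like Ly6i (0.935), Pnpla1 (0.922) and Spint2 (0.912), and Ifitm3 most like Trim30d (0.862), Hpf1 (0.846) and Lrrc57 (0.843).

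**Figure D5:**
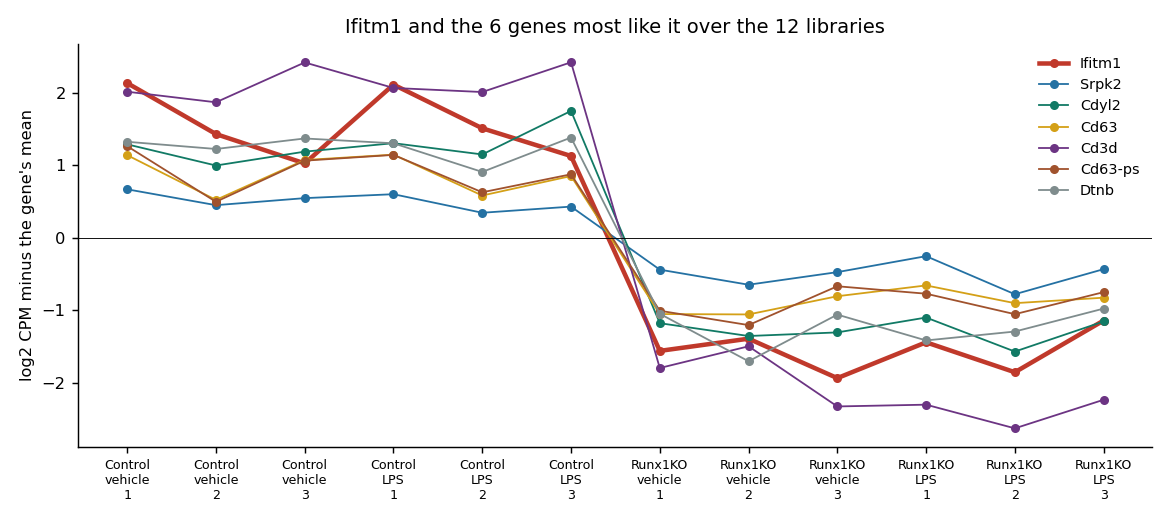
Log2 CPM minus the gene's own mean (vertical axis) in the 12 libraries for Ifitm1 and the 6 genes with the highest Pearson's r to it. All 7 lines lie above 0 in the 6 Control libraries and below 0 in the 6 Runx1KO libraries, and within a genotype they run apart.

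Libraries held 19023610 to 26225169 counts, so 3 counts correspond to 0.114 to 0.158 CPM. Runx1 itself measured 43.9 ± 10.7 CPM in Control vehicle and 68.1 ± 7.46 CPM in Runx1KO vehicle (edgeR adjusted p 0.656). Since the deleted part is not known here, counts over the whole gene check no label. Neutrophil markers were abundant in all 12 libraries. The 10 genes of that list summed to 119836 to 126942 CPM in Control vehicle, 113955 to 138126 in Control LPS, 86337 to 106601 in Runx1KO vehicle and 119579 to 122157 CPM in Runx1KO LPS, and 0 of them was called. With vehicle every Runx1KO sum thus lay below every Control sum, while after LPS the sums overlapped. Of the 10 log2 Runx1KO to Control differences, 1 lay above 0 with vehicle and 2 after LPS. Their medians were -0.31 and -0.27, beside 0.00 and 0.03 for all genes. Whether this bears on the Ifitm levels was not tested. In the fit with the library number as a block 1 of the 10 neutrophil genes, Ly6g, was called lower with vehicle (log2 difference -1.54, edgeR adjusted p 0.0334).

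Markers of other cell types moved with the genotype beside Ifitm1, and their part in the result was not tested. The 10 basophil and mast cell genes summed to 1701 to 3055 CPM in Control vehicle and 1488 to 3508 CPM in Runx1KO vehicle, and to 1818 to 3956 and 1271 to 4610 CPM after LPS, so the summed levels overlapped. Its single genes differed more than the sum. Of its 8 tested genes, 1 lay above 0 with vehicle and 2 after LPS, and 6 and 5 had an edgeR unadjusted p under 0.05, beside 7.79% and 10.1% of all genes. With genes at 0 counts in a group set against 3 counts over that group, the median log2 difference was -3.33 with vehicle and -2.07 after LPS. The basophil proteases Prss34 and Mcpt8 were called lower with vehicle, Prss34 also after LPS, and both had 0 counts in all 6 Runx1KO libraries, as did Fcer1a. Prss34 measured 7.43, 3.92 and 15.6 CPM in Control vehicle, with library 3 the highest. The 9 T and NK genes summed to 35.2 to 54.3 CPM and 5.34 to 10.1 CPM with vehicle, and 38.0 to 52.7 and 5.31 to 8.21 CPM after LPS. Of these 4 were tested and 1, Cd3d, was called lower in both. That gene carried the lower sum, since the other 8 summed to 2.84 to 6.90 CPM in Control vehicle and 2.87 to 8.41 CPM in Runx1KO vehicle, and to 2.28 to 5.18 and 3.60 to 6.41 CPM after LPS. The list's median log2 difference was -0.03 with vehicle and 0.25 after LPS. The 10 B lineage genes overlapped at 115 to 313 and 152 to 197 CPM with vehicle and at 93.2 to 407 and 159 to 213 CPM after LPS. Ms4a1, a B cell surface protein, was called lower in both treatments and had 0 counts in Runx1KO vehicle.

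Of the 8 eosinophil genes, 7 were tested and Ear2 was called lower with vehicle, at sums of 10.8 to 35.4 CPM in Control and 9.55 to 28.5 CPM in Runx1KO. After LPS the sums were 10.9 to 32.0 and 10.3 to 14.5 CPM, with 0 called. Of 7 platelet genes, 4 (Ppbp, Pf4, Itga2b, Treml1) were called higher with vehicle and 2 (Itga2b, Treml1) after LPS, at sums of 28.1 to 34.8 CPM in Control vehicle and 45.8 to 52.7 CPM in Runx1KO vehicle. After LPS the sums were 30.2 to 35.0 and 40.3 to 54.4 CPM, so the genotypes did not overlap in either treatment. The monocyte, erythroid, dendritic and progenitor lists had 0 calls between genotypes by edgeR's quasi-likelihood test. At an unadjusted p under 0.05 edgeR had 1, 2, 0 and 2 of their genes with vehicle and 2, 2, 0 and 2 after LPS, beside 7.79% and 10.1% of all genes. All 7 erythroid genes lay above 0 in both treatments, with a median log2 difference of 1.43 in each. The erythroid sum was highest, at 1498 CPM, in Runx1KO vehicle library 2.

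With the library number as a block edgeR called further genes of these lists. With vehicle these included Cpa3 and Cd200r3 (basophil and mast cell), Cd79b (B lineage) and Itgax (dendritic) lower, and Ccr3 (eosinophil) and Gp9 (platelet) higher. After LPS they included Mcpt8, Ear2, Cd79b, Itgax and the platelet integrin Itgb3 lower, and Ppbp and Pf4 higher. In that fit the calls of the T and NK, monocyte and erythroid lists were as many as without the block.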

How the data were processed

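The deposited table, made by the authors, holds raw read counts for each gene, as its whole numbers and unequal totals show. The submitters' processing notes name STAR 2.6.0a, featureCounts and the build mm9. The annotation, the strand setting and the handling of shared reads were not stated there or in the labels. ERCC spike-in RNA was added per the labels' protocols, and the table held 0 spike-in entries. Columns were matched to samples by title, with 0 further columns left out. Gene symbols, matched by Ensembl identifier without its version, were found for 32620 of 37310 genes.

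Genes were filtered with filterByExpr, scaled by TMM and fitted in edgeR 4.0.16 (R 4.3.3) with a quasi-likelihood model of the 4 groups. P values were adjusted by Benjamini-Hochberg over 12917 genes, with a threshold of 0.05. With 3 against 3 libraries an exact two-sided permutation test cannot go below 0.1, so tests borrowed spread across genes. Log2 CPM used a prior count of 2. Scripts were tested on simulated data. The titles number the libraries of each group 1 to 3 without saying what a number marks. Deviations from the group means of libraries with the same number correlated at 0.394 to 0.667 for LPS in Control, 0.374 to 0.479 between genotypes with vehicle and 0.429 to 0.565 between genotypes after LPS, so in these 3 comparisons the numbers were read as pairs, from the data and not from the labels. For LPS in Runx1KO they ran from 0.00575 to 0.537, and the numbers were not read as pairs. The main model held no term for the library number, so its standard errors and p-values are unpaired in every comparison. Only the replicate block used the number. RLE scaling (relative log expression), library size alone, no filter on low counts, DESeq2 1.42.0, limma-voom 3.58.1, a replicate block and leaving out libraries were the alternatives.

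The members, the 5 gene lists, the 10 marker lists and the naming rule were chosen with earlier results of these data known. This rule takes the 4 genes, Runx1, called list members, fixed pathway genes, neighbours and the genes most like each member, at a mean log2 CPM no lower than 2. The r within each genotype and the counts of predicted copies were added after values were seen. The values of some tested genes of the lists are not reported here. Counting floors cover counting error only, since reads carry no molecular identifiers. Protein sequences were not used here.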

Additional observations from a re-analysis of the deposited data

How the results depend on the processing

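The 4 genes were refitted under 21 alternatives, 15 of which left out libraries, and 394 of 420 fold changes kept their direction and, in the LPS contrasts that were tested, their side of the threshold. The Ifitm1 difference between genotypes stayed between -3.21 and -3.16 with vehicle and between -3.26 and -3.03 after LPS under the 6 alternatives that kept all libraries. Leaving out libraries gave -3.45 to -2.84 and -3.47 to -2.80. For Ifitm6 and Ifitm2 with vehicle it gave -1.22 to -0.78 and -0.99 to -0.68.

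Differences near 0 turned sign. Library size alone gave -0.067 and -0.17 for the Ifitm1 LPS response in Control and Runx1KO, -0.10 for their difference, -0.080 for the Ifitm3 LPS response in Control and -0.035 for Ifitm3 between genotypes after LPS. That scaling moves the median of all genes from -0.02 to -0.14 for LPS in Control, from 0.03 to -0.28 for LPS in Runx1KO and from 0.05 to -0.15 for their difference. Leaving out libraries gave -0.26 to 0.40, -0.19 to 0.45 and -0.24 to 0.44 for the same 3 Ifitm1 values. It gave -0.054 to 0.30 for the Ifitm2 LPS response in Control and -0.49 to 0.11 for Ifitm2 between genotypes after LPS. For Ifitm3 the same 2 values ran from -0.076 to 0.16 and from -0.050 to 0.17. The Ifitm6 LPS response ran from -0.31 to 0.018 in Control and from -0.076 to 0.57 in Runx1KO.

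Between genotypes DESeq2 called 386 genes with vehicle and 401 after LPS, and 1 gene for LPS in Runx1KO. Leaving out libraries left 1 to 171 calls with vehicle and 3 to 135 after LPS. The cause was not tested. With the replicate block 315 genes were called with vehicle and 302 after LPS, and no tested LPS value of the 4 genes changed its call. The Ifitm3 motif counts were 2 response elements and 1 gamma-activated site when the 50 bases after the start were added, and its Runx1KO LPS level was 700 CPM with library size alone.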
